A study of Danio rerio with 3 samples.

Results

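Integrins other than the thrombocyte integrin were examined in 3 cell populations sorted from the adult zebrafish kidney. The genes were chosen by name: every gene whose symbol is that of an integrin alpha or beta subunit, without *itga2b* and the copies of *ITGB3*, which form the thrombocyte integrin, and without the proteins that only bind integrins. This gave 31 of the 32057 genes in the files, of which 21 encode alpha and 10 encode beta subunits. The first population was gata2a+ runx1+ cells, the second gata2a- runx1+ cells, and the third gata2a+ runx1- cells, all from the low side scatter fraction of kidney marrow, with 1 library each. The labels give the fish as adult and wild type, and by the study's methods the fish behind all 3 populations carried 2 transgenes together, *gata2a:GFP* and *runx1:mCherry*, with red cells lysed before the sort. GFP in this line also marks eosinophils and endothelial cells, and mCherry is driven by an enhancer of mouse *Runx1*, so that the gates follow the reporters and not the endogenous genes. In the labels the populations are HSCs, erythroid- and/or myeloid-primed progenitors, and lymphoid-primed progenitors. Many zebrafish genes are listed under the human symbol in the table used, and symbols are given here as listed, so that several copies can share 1 symbol.

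Integrins are cell surface receptors made of 1 alpha and 1 beta chain, and the pair that forms decides what the cell can bind. They hold cells to matrix proteins such as fibronectin, laminin, and collagen, or to ligands on other cells, and they bind firmly only after talin and kindlin attach to the tail of the beta chain inside the cell. In mammals, blood stem and progenitor cells are kept in the bone marrow largely through integrins that contain beta1, above all alpha4 with beta1, whereas beta2 integrins serve leukocytes during adhesion, migration, and phagocytosis.

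Between 8094670 and 8205803 reads were counted on genes per library. A gene was taken as read when it had over 3 reads, which is 0.369 RPM, the share of a gene among all reads counted, in the gata2a+ runx1+ library, 0.366 RPM in the gata2a- runx1+ library, and 0.371 RPM in the gata2a+ runx1- library. A gene with 0 reads can still be at up to 0.475 RPM by its 95% Wilson interval. *GATA2* (ENSDARG00000059327), the gene behind the GFP gate, had 2798 reads in the gata2a+ runx1+ library, 97 reads in the gata2a- runx1+ library, and 10961 reads in the gata2a+ runx1- library. It was lowest in the library gated as GFP-negative, and the gates set no order between the gata2a+ libraries. Because there was 1 library per population, no difference has a replicate check. The tests compare libraries and their counting error, not populations, and intervals and floors also cover counting error only, since PCR copies are not independent molecules. In bulk RNA, more cells of a type and more RNA per cell cannot be told apart.

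The marker genes of other blood and kidney cells differed widely between the 3 libraries. The 9 erythroid genes summed to 330.0 RPM in the gata2a+ runx1+ library, 2890 RPM in the gata2a- runx1+ library, and 5.07 RPM in the gata2a+ runx1- library. The 15 macrophage genes summed to 1817, 473.8, and 3093 RPM in that order of populations, most of it from *cd74a* and *cd74b*. Of the others, *csf1ra* had 8, 0, and 25 reads, while *marco* had 138, 29, and 78 reads. The 6 neutrophil genes summed to 445.2, 555.9, and 888.5 RPM, with *npsn* at 1489, 2397, and 2923 reads and *NCF1* at 970, 355, and 3798 reads. The gene listed as *EPX* (ENSDARG00000019521), which the study lists as *mpx*, had 860, 1757, and 407 reads and *MMP9* had 297, 49, and 58 reads. The 8 B cell genes summed to 72.4, 13.4, and 2424 RPM, and *PAX5* had a read only in the gata2a+ runx1- library, with 258 reads. The 4 eosinophil and mast cell genes summed to 407.0, 20.8, and 1964 RPM, and *eslec* had 431, 0, and 4419 reads. Most of this sum was *GATA2*, the gene behind the GFP gate, at 344.4, 11.8, and 1354 RPM. The sort itself thus bears on the low value of this sum in the gata2a- runx1+ library. The 5 endothelial genes summed to 33.2, 22.3, and 142.2 RPM, with *kdrl* at 0, 0, and 693 reads. Almost all of this sum in the runx1+ libraries came from *tek*, with 265, 179, and 304 reads. The 6 stromal genes summed to 23.3, 1.22, and 376.7 RPM, with *DCN* at 11, 0, and 755 reads. The 8 T and NK cell genes summed to 10.8, 1.22, and 37.9 RPM, and the 7 thrombocyte genes, which hold the left-out *itga2b*, to 1586, 1247, and 129.2 RPM. Most of the thrombocyte sum came from *FLI1* in the gata2a+ runx1+ library, with 12097, 4264, and 487 reads, whereas *itga2b*, *GP1BB*, *gp9*, *f5*, and *THBS1* were each highest in the gata2a- runx1+ library. The remaining gene, *mpl*, had 48, 24, and 2 reads and was, like *FLI1*, highest in the gata2a+ runx1+ library. The 8 kidney tubule genes summed to 693.3, 739.4, and 453.5 RPM, in each library almost all from *SLC20A1*, while *CDH17* had 0, 0, and 23 reads. The marker sums of leukocytes, endothelial cells, and stromal cells, though not each of their genes, were thus highest in the gata2a+ runx1- library and that of erythroid cells in the gata2a- runx1+ library, and their part in the integrin values was not tested.

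Of the 31 integrin genes, 22 had over 3 reads in at least 1 library, 15 of them alpha and 7 of them beta subunits. These numbered 17 genes in the gata2a+ runx1+ library, 15 genes in the gata2a- runx1+ library, and 18 genes in the gata2a+ runx1- library, and 10 genes passed in all 3. Of all 32057 genes, 13551, 12748, and 13759 had over 3 reads in the same order of libraries. Among the 22 genes, 7 had their highest RPM in the gata2a+ runx1+ library, 4 in the gata2a- runx1+ library, and 11 in the gata2a+ runx1- library. A gene was called higher or lower between 2 libraries when its RPM differed over 2-fold, with 3 reads or fewer taken as 3 reads, and when the Benjamini-Hochberg adjusted p of a two-sided Fisher's exact test over all genes was under 0.05. By this rule 20 of the 22 genes were called in at least 1 of the 3 pairs of libraries. This count and those of the highest library have no background, since the matching shares of all genes were not computed. The 22 genes were also already chosen for having over 3 reads.

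Between the gata2a+ runx1+ and the gata2a- runx1+ library, 6 of 23 integrin genes with a read in either library were higher and 4 were lower, while 16.8% of all genes tested were higher and 9.59% were lower. Compared with the gata2a+ runx1- library, the gata2a+ runx1+ library had 6 of 24 integrin genes higher and 12 lower, against 15.4% of all genes higher and 17.9% lower. Between the gata2a- runx1+ and the gata2a+ runx1- library, 3 of 22 integrin genes were higher and 10 were lower, against 15.3% and 22.0% of all genes. The lower calls thus made up 50% and 45.5% of the integrin genes in the 2 comparisons with the gata2a+ runx1- library, above the background in both. Each pair of comparisons shares 1 library, so that they are not independent. The share of called genes depends on how deeply a gene is read, and where the mean over the libraries reached 1 RPM, 21.2% of genes were lower in the second of these comparisons and 26.2% in the third. The median difference in log2(RPM + 1) over the 17 integrin genes that reached a mean of 1 RPM was 0.08 between the gata2a+ runx1+ and the gata2a- runx1+ library, a sign that turned to -0.37 at a minimum mean of 5 RPM, -1.09 between the gata2a+ runx1+ and the gata2a+ runx1- library, and -1.10 between the gata2a- runx1+ and the gata2a+ runx1- library. Over all genes with that mean, the medians were 0.07, 0.05, and -0.01 in the same order. With a pseudocount of 5 RPM the integrin medians in the comparisons with the gata2a+ runx1- library were -0.48 for the gata2a+ runx1+ library and -0.46 for the gata2a- runx1+ library, and with no minimum RPM both were 0.0. These medians are descriptions, without a test.

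**Figure D1:**
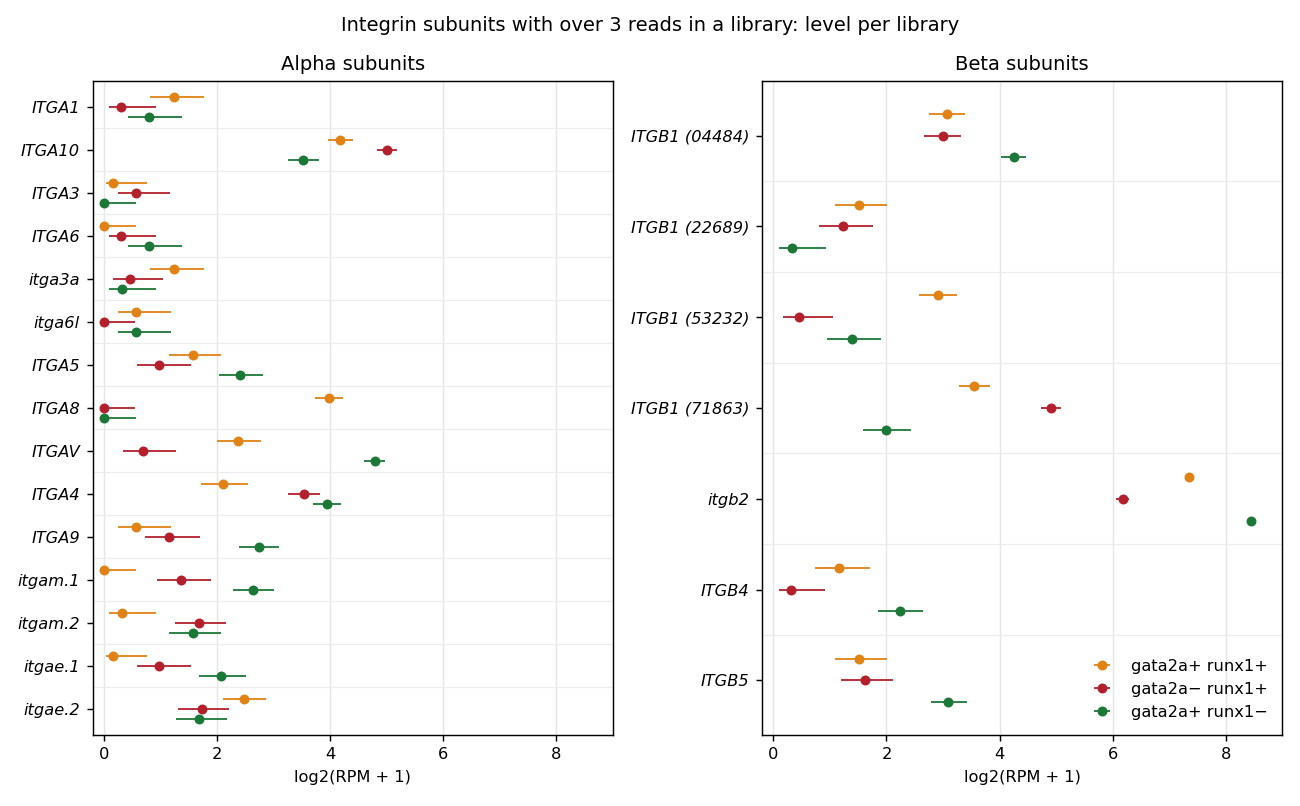
Level of each integrin subunit with over 3 reads in a library, as log2(RPM + 1), in the gata2a+ runx1+ library (orange), the gata2a- runx1+ library (red), and the gata2a+ runx1- library (green), with alpha subunits on the left and beta subunits on the right. Points are single libraries and bars are 95% Wilson intervals, numbers in brackets are the last digits of the gene ID, and green points lie farthest right for 11 of the 22 genes.

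The integrin gene with the most reads was *itgb2* (ENSDARG00000016939), the beta2 chain that leukocyte integrins share. It had 1314 reads in the gata2a+ runx1+ library (161.8 RPM, 95% Wilson interval 153.2 to 170.7), 585 reads in the gata2a- runx1+ library (71.3 RPM, 65.7 to 77.3), and 2795 reads in the gata2a+ runx1- library (345.3 RPM, 332.7 to 358.3). The 3 intervals did not overlap, with the double-positive library between the other two. The ratio was 2.27 (95% interval 2.06 to 2.51) over the gata2a- runx1+ library and 0.468 (0.4384 to 0.5004) over the gata2a+ runx1- library, with adjusted p = 1.91e-64 and 3.16e-120 in Fisher's exact test. In the gata2a- runx1+ library it was lower than in the gata2a+ runx1- library, with a ratio of 0.206 (0.189 to 0.226). The macrophage marker sum took the same order over the 3 libraries as *itgb2*. So did the sums of B cells, T and NK cells, eosinophils and mast cells, endothelial cells, and stromal cells. The part of any of these cells in the *itgb2* values was not tested.

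Of the alpha chains that pair with beta2 on mammalian myeloid cells, only alphaM is among the chosen genes, which hold none named after alphaL or alphaX. The alphaM genes are *itgam.1* and *itgam.2*, and alphaM together with beta2 forms the receptor for complement-coated particles. These genes did not follow *itgb2* in the gata2a+ runx1+ library, and other partners of beta2 are not covered here. *itgam.1* (ENSDARG00000002956) had 0 reads in the gata2a+ runx1+ library, 13 reads in the gata2a- runx1+ library, and 42 reads in the gata2a+ runx1- library. Taken against the floor of 3 reads, *itgam.1* was 4.29-fold lower in the gata2a+ runx1+ library than in the gata2a- runx1+ library. It was 14.1-fold lower than in the gata2a+ runx1- library. The 95% intervals began at 3.02-fold and 10.9-fold lower (adjusted p = 0.000802 and 1.25e-12, Fisher's exact test). *itgam.2* (ENSDARG00000096587) had 2, 18, and 16 reads in the same order of populations, and was lower in the gata2a+ runx1+ library than in both others, with ratios of 0.112 (0.0126 to 0.469) and 0.125 (0.0139 to 0.530). Together the genes were at 0.246 RPM in the gata2a+ runx1+ library (95% Wilson interval 0.0675 to 0.898), 3.78 RPM in the gata2a- runx1+ library (2.66 to 5.36), and 7.17 RPM in the gata2a+ runx1- library (5.54 to 9.26). The double-positive library, second in *itgb2*, was therefore the lowest of the 3 in alphaM reads. The copies differed between the gata2a- runx1+ and the gata2a+ runx1- library, where *itgam.1* was lower (ratio 0.305, 0.150 to 0.580) and *itgam.2* was at a ratio of 1.11 (0.534 to 2.33), within counting error.

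AlphaE, which in mammals pairs with beta7 and binds E-cadherin on epithelia, is also listed as 2 genes. *itgae.1* (ENSDARG00000098012) had 1 read in the gata2a+ runx1+ library, 8 reads in the gata2a- runx1+ library, and 26 reads in the gata2a+ runx1- library. It was lower than in the gata2a+ runx1- library in the gata2a+ runx1+ library (ratio 0.0383, 0.000935 to 0.233) and in the gata2a- runx1+ library (ratio 0.304, 0.119 to 0.690). *itgae.2* (ENSDARG00000057787) went the other way, with 37 reads in the gata2a+ runx1+ library, 19 reads in the gata2a- runx1+ library, and 18 reads in the gata2a+ runx1- library. Its ratio of 2.05 over the gata2a+ runx1- library (1.14 to 3.82, adjusted p = 0.0293 in Fisher's exact test) just passed the 2-fold limit and was not called after rescaling by TMM or DESeq2 factors, and its ratio of 1.97 over the gata2a- runx1+ library (1.103 to 3.62) was just inside the limit. The summed reads of the alphaE genes did not differ beyond counting error between the gata2a+ runx1+ library and either other library, at 4.68 RPM (3.41 to 6.42), against 3.29 RPM in the gata2a- runx1+ library (2.26 to 4.79) and 5.44 RPM in the gata2a+ runx1- library (4.05 to 7.30). In the RefSeq annotation both overlap 1 further gene, and reads shared between them cannot be told apart here. *itgb7*, the partner of alphaE in mammals, had no read in any library.

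Beta1, the chain that most alpha subunits pair with, is listed under 4 gene IDs, and their order differed from library to library. The copy ENSDARG00000071863 of *ITGB1* was highest in the gata2a- runx1+ library. It had 87 reads in the gata2a+ runx1+ library (10.7 RPM, 8.68 to 13.2), 238 reads in the gata2a- runx1+ library (29.0 RPM, 25.5 to 32.9), and 24 reads in the gata2a+ runx1- library (2.96 RPM, 1.99 to 4.41). Its ratio was 0.369 (0.285 to 0.474) in the gata2a+ runx1+ over the gata2a- runx1+ library, 3.61 (2.28 to 5.94) in the gata2a+ runx1+ over the gata2a+ runx1- library, and 9.78 (6.42 to 15.6) in the gata2a- runx1+ over the gata2a+ runx1- library, all 3 called (adjusted p = 4.01e-16, 6.47e-09, and 6.87e-44, Fisher's exact test). This copy thus ran in the opposite order to *itgb2* over the 3 libraries.

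The copy ENSDARG00000053232 of *ITGB1* was the one that stood out in the gata2a+ runx1+ library, with 53 reads there (6.52 RPM, 4.99 to 8.53), 3 reads in the gata2a- runx1+ library, and 13 reads in the gata2a+ runx1- library (1.61 RPM, 0.939 to 2.75). The ratio was 17.8 (5.78 to 89.3) over the gata2a- runx1+ library and 4.06 (2.18 to 8.12) over the gata2a+ runx1- library (adjusted p = 2.82e-12 and 2.59e-06, Fisher's exact test). The copy ENSDARG00000104484 was instead highest in the gata2a+ runx1- library, with 60 reads in the gata2a+ runx1+ library (7.39 RPM), 57 reads in the gata2a- runx1+ library (6.95 RPM), and 146 reads in the gata2a+ runx1- library (18.0 RPM). Both runx1+ libraries were lower than the gata2a+ runx1- library (ratios 0.409, 0.298 to 0.557, and 0.385, 0.278 to 0.526), and against each other their ratio was 1.06 (0.728 to 1.56). The copy ENSDARG00000022689 had 15, 11, and 2 reads, and both runx1+ libraries were higher than the gata2a+ runx1- library (ratios 7.47, 1.74 to 67.3, and 5.43, 1.18 to 50.4).

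Summed over the 4 copies, *ITGB1* was at 26.5 RPM in the gata2a+ runx1+ library (23.2 to 30.2), 37.7 RPM in the gata2a- runx1+ library (33.7 to 42.1), and 22.9 RPM in the gata2a+ runx1- library (19.8 to 26.4). The ratio of the sums was 0.703 (0.588 to 0.839) in the gata2a+ runx1+ over the gata2a- runx1+ library, 1.16 (0.947 to 1.42) in the gata2a+ runx1+ over the gata2a+ runx1- library, and 1.65 (1.37 to 1.99) in the gata2a- runx1+ over the gata2a+ runx1- library. The copy that supplied most of the reads also differed. In the gata2a- runx1+ library 77.0% of the *ITGB1* reads (95% Wilson interval 72.0 to 81.4) fell on ENSDARG00000071863, and in the gata2a+ runx1- library 78.9% (72.5 to 84.2) fell on ENSDARG00000104484. In the gata2a+ runx1+ library no copy held most of them, with 40.5% (34.1 to 47.1) on ENSDARG00000071863, 27.9% (22.3 to 34.3) on ENSDARG00000104484, and 24.7% (19.4 to 30.8) on ENSDARG00000053232. RefSeq lists *itgb1a* and, next to each other, *itgb1b*, *itgb1b.1*, and *itgb1b.2*, and which ID is which was not settled here. The treatment of reads that match several copies is not given in the sources used here, so the split between copies is uncertain.

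**Figure D2:**
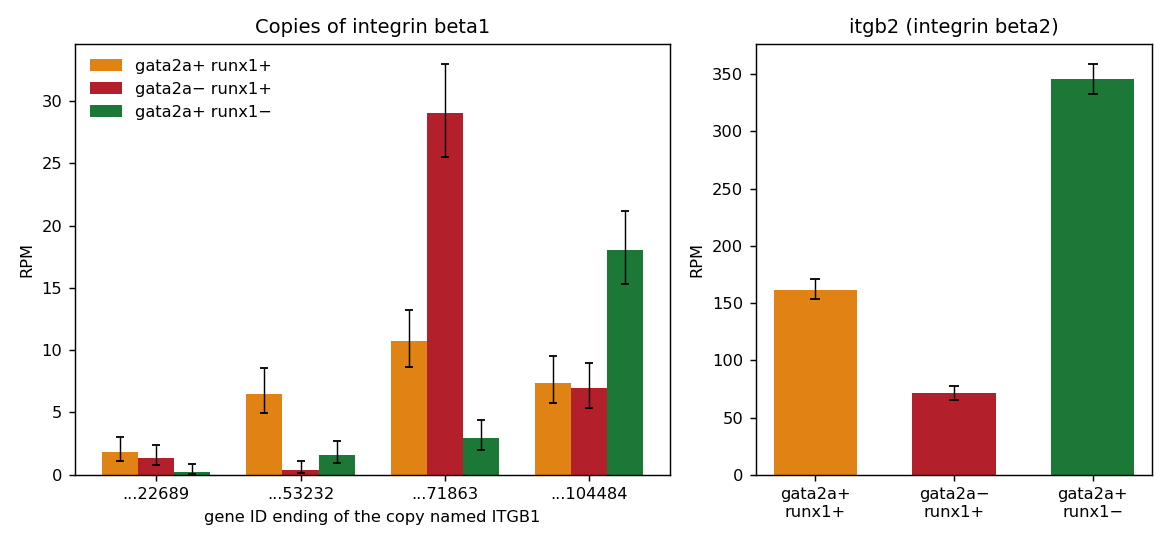
RPM of the 4 genes named *ITGB1* (left, by the last digits of the gene ID) and of *itgb2* (right) in the gata2a+ runx1+, gata2a- runx1+, and gata2a+ runx1- libraries, as bars from 0 with 95% Wilson intervals and 1 library each. ENSDARG00000071863 was highest in the gata2a- runx1+ library at 29.0 RPM, ENSDARG00000104484 was highest in the gata2a+ runx1- library at 18.0 RPM, and *itgb2* was at 161.8, 71.3, and 345.3 RPM.

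The alpha subunits that recognise the RGD motif of fibronectin, vitronectin, and related matrix proteins are *ITGA5*, *ITGA8*, and *ITGAV*. *ITGA8* (ENSDARG00000078717), a partner of beta1 that in mammals binds nephronectin and is needed for kidney development, was read only in the gata2a+ runx1+ library. It had 120 reads there (14.8 RPM, 12.4 to 17.7) and 0 reads in the gata2a- runx1+ and in the gata2a+ runx1- library. Against the floor of 3 reads, this was 40.4-fold higher than in the gata2a- runx1+ library and 39.9-fold higher than in the gata2a+ runx1- library. The intervals of these ratios began at 32.4-fold and 31.9-fold higher (adjusted p = 8.71e-36 and 2.16e-35, Fisher's exact test). Of the genes with at least 120 reads in the gata2a+ runx1+ library, 3 of 5641 had none in either other. In the gata2a- runx1+ library it was 1 of 5478 and in the gata2a+ runx1- library 29 of 5707. This cut was the count of *ITGA8* itself, which is among the 3 genes, so that these counts are a description. With over 3 reads, 572, 387, and 890 genes were read in 1 library only, in the same order of libraries. *ITGA8* overlaps no other gene in RefSeq.

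*ITGAV* (ENSDARG00000006314), the alpha chain shared by the vitronectin receptors, showed the widest spread among the subunits read in all 3 libraries. It had 34 reads in the gata2a+ runx1+ library (4.19 RPM, 2.995 to 5.85), 5 reads in the gata2a- runx1+ library (0.610 RPM, 0.260 to 1.43), and 216 reads in the gata2a+ runx1- library (26.7 RPM, 23.4 to 30.5). The order was that of *itgb2*, with the double-positive library in the middle. The ratio was 6.87 (2.67 to 22.5) over the gata2a- runx1+ library and 0.157 (0.106 to 0.226) over the gata2a+ runx1- library, and the gata2a- runx1+ library was 43.8-fold lower than the gata2a+ runx1- library (18.5 to 136.2). The stromal, endothelial, macrophage, and other leukocyte marker sums were also highest in the gata2a+ runx1- library, and their part in the *ITGAV* values was not tested. *ITGA5* (ENSDARG00000006353), which with beta1 forms the classical fibronectin receptor, had 16, 8, and 35 reads. Both runx1+ libraries were lower than the gata2a+ runx1- library, with ratios of 0.456 (0.235 to 0.845) and 0.225 (0.0904 to 0.495), and with 16 against 8 reads the ratio between them was 2.02 (0.816 to 5.45, adjusted p = 0.187, Fisher's exact test).

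*ITGA4* and *ITGA9* form a pair of related alpha chains, both of which bind VCAM1 on other cells. *ITGA4* (ENSDARG00000103056) had 27 reads in the gata2a+ runx1+ library (3.32 RPM, 2.28 to 4.84), 87 reads in the gata2a- runx1+ library (10.6 RPM, 8.60 to 13.1), and 116 reads in the gata2a+ runx1- library (14.3 RPM, 11.9 to 17.2). The gata2a+ runx1+ library, labelled HSCs, was the lowest, with a ratio of 0.313 (0.196 to 0.488) over the gata2a- runx1+ library and 0.232 (0.147 to 0.355) over the gata2a+ runx1- library (adjusted p = 8.87e-08 and 8.64e-14, Fisher's exact test). Between the gata2a- runx1+ and the gata2a+ runx1- library the ratio was 0.740 (0.554 to 0.985), which was not called (adjusted p = 0.0620, Fisher's exact test). *ITGA9* (ENSDARG00000032435), which also binds tenascin and osteopontin, had 4, 10, and 46 reads. It was lower than in the gata2a+ runx1- library both in the gata2a+ runx1+ library (ratio 0.0866, 0.0227 to 0.237) and in the gata2a- runx1+ library (ratio 0.214, 0.0965 to 0.431), whereas 4 against 10 reads did not differ beyond counting error.

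Of the 7 genes for collagen-binding alpha chains, *ITGA10* and *ITGA1* were read. *ITGA10* (ENSDARG00000002507), a receptor best known from mammalian cartilage, had 139 reads in the gata2a+ runx1+ library (17.1 RPM, 14.5 to 20.2), 255 reads in the gata2a- runx1+ library (31.1 RPM, 27.5 to 35.1), and 85 reads in the gata2a+ runx1- library (10.5 RPM, 8.49 to 13.0). The intervals did not overlap, in the order of ENSDARG00000071863 among the *ITGB1* copies, and the ratio of 2.96 (2.31 to 3.83) in the gata2a- runx1+ over the gata2a+ runx1- library was called. The double-positive library differed from both others by less than the 2-fold limit, with ratios of 0.551 (0.445 to 0.680) and 1.63 (1.24 to 2.16). *ITGA10* is uncertain, because in RefSeq it overlaps *polr3c*, a subunit of RNA polymerase III, which had 395, 432, and 235 reads, and whether reads were counted by strand is not stated. This limit is not particular to *ITGA10*. Of 29 subunit genes in RefSeq, 14 overlap another gene, and 10 overlap a protein-coding gene. The 14 include *itga1*, *itga6l*, *itgam.1*, and *itga9*. *ITGA1* (ENSDARG00000074316), a receptor for basement membrane collagen, had 11 reads in the gata2a+ runx1+ library, 2 reads in the gata2a- runx1+ library, and 6 reads in the gata2a+ runx1- library. Its ratio of 5.56 (1.21 to 51.6) over the gata2a- runx1+ library was called (adjusted p = 0.0291, Fisher's exact test), but not after rescaling by TMM factors.

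The laminin receptors were read at a low level throughout. The 5 genes named after alpha3 and alpha6 summed to 16 reads in the gata2a+ runx1+ library, 9 reads in the gata2a- runx1+ library, and 12 reads in the gata2a+ runx1- library. *itga3a* (ENSDARG00000037917) had 11, 3, and 2 reads and was higher in the gata2a+ runx1+ than in the gata2a+ runx1- library, at a ratio of 5.48 (1.196 to 50.9, adjusted p = 0.0434, Fisher's exact test). *ITGA6* (ENSDARG00000042282), one of the chains used to enrich stem cells in mammals, had 0, 2, and 6 reads. Against the floor of 3 reads, it was 2.01-fold lower in the gata2a+ runx1+ than in the gata2a+ runx1- library. The interval of this ratio began at 1.18-fold lower (adjusted p = 0.0308, Fisher's exact test). The call was lost when each library's 20 most read genes were left out of the totals. *ITGA3* (ENSDARG00000012824), with 1, 4, and 0 reads, and *itga6l* (ENSDARG00000056018), with 4, 0, and 4 reads, were called in no pair of libraries, and differences of this size were not detectable at this depth.

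Of the remaining beta chains, *ITGB4* and *ITGB5* were both highest in the gata2a+ runx1- library. *ITGB5* (ENSDARG00000012942), which pairs with alphaV to bind vitronectin, had 15 reads in the gata2a+ runx1+ library (1.85 RPM, 1.12 to 3.05), 17 reads in the gata2a- runx1+ library (2.07 RPM, 1.29 to 3.32), and 61 reads in the gata2a+ runx1- library (7.54 RPM, 5.87 to 9.68). Both runx1+ libraries were lower than the gata2a+ runx1- library (ratios 0.245, 0.129 to 0.436, and 0.275, 0.151 to 0.477) and were at a ratio of 0.891 (0.414 to 1.90) to each other. *ITGB4* (ENSDARG00000028507), which in mammals pairs with alpha6 and anchors epithelial cells to laminin, had 10, 2, and 30 reads. It was lower than in the gata2a+ runx1- library in both runx1+ libraries (ratios 0.332, 0.145 to 0.698, and 0.0658, 0.00762 to 0.259), and its ratio of 5.05 (1.08 to 47.4) in the gata2a+ runx1+ over the gata2a- runx1+ library was called (adjusted p = 0.0473, Fisher's exact test) but lost under each of the 3 rescalings.

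No read was counted in any library for 7 of the 31 genes. These were 1 gene named *ITGA11* (ENSDARG00000007950), *ITGA2*, *itga2.1*, *itga2.3*, and *itga6b* among the alpha chains, and *itgb7* and *ITGB8* among the beta chains. The other gene named *ITGA11* (ENSDARG00000036086) had 3 reads in the gata2a+ runx1+ library and 0 reads in the others, and *ITGB6* (ENSDARG00000002494) had 2 reads in the gata2a+ runx1- library and 0 reads in the others, neither over the floor. Of the 12 genes for collagen and laminin receptors, 5 had 0 reads in every library. Unread genes were common in general. Of all 32057 genes, 16352 had a read in the gata2a+ runx1+ library, 15366 in the gata2a- runx1+ library, and 16337 in the gata2a+ runx1- library. The count is therefore not read as a trait of these receptors. As 0 reads allow up to 0.473 RPM in the gata2a+ runx1+ library, low expression of these genes was not detectable at this depth.

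**Figure D3:**
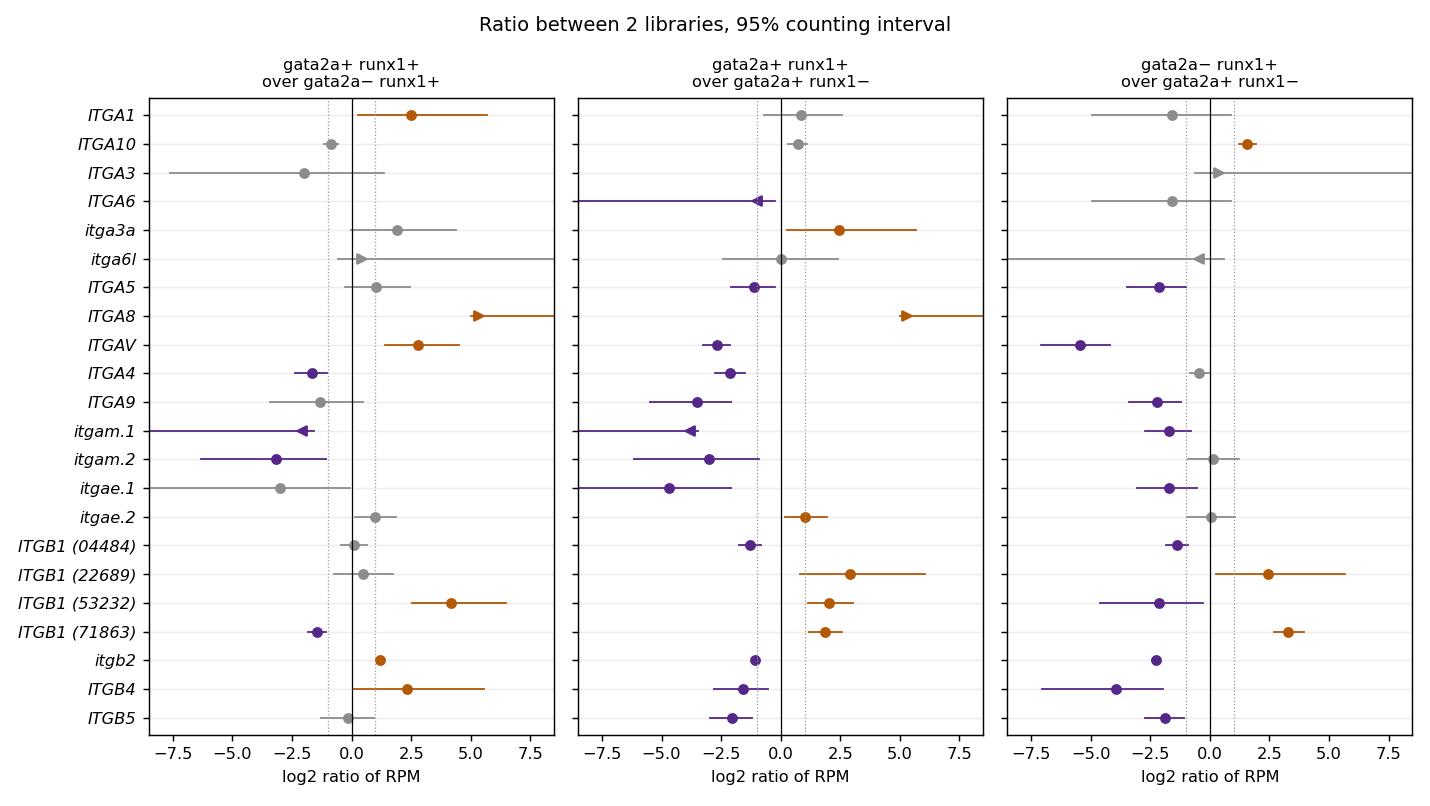
Log2 ratio of RPM between 2 libraries for the 22 integrin subunits with over 3 reads in a library, with 95% counting intervals, for gata2a+ runx1+ over gata2a- runx1+ (left), gata2a+ runx1+ over gata2a+ runx1- (middle), and gata2a- runx1+ over gata2a+ runx1- (right). Brown genes were called higher and purple genes lower, grey genes were not called, genes with 3 reads or fewer in both libraries of a pair are left blank, arrowheads mark ratios taken against the floor because 1 library had 0 reads, and dotted lines mark 2-fold. Purple outnumbers brown by 12 to 6 in the middle and by 10 to 3 on the right. Of all genes tested, 17.9% were lower and 15.4% higher in the middle pair, and 22.0% and 15.3% in the right pair.

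Alpha and beta subunits were compared as summed reads, which are weighted towards the genes with most reads and are no test of the single genes. The 10 beta genes summed to 191.3 RPM in the gata2a+ runx1+ library (182.0 to 201.0), 111.3 RPM in the gata2a- runx1+ library (104.3 to 118.7), and 379.6 RPM in the gata2a+ runx1- library (366.4 to 393.3). The 21 alpha genes summed to 50.5 RPM (45.8 to 55.6), 52.9 RPM (48.1 to 58.1), and 76.3 RPM (70.6 to 82.6) in the same order. The beta sum therefore differed between all 3 libraries, while the alpha sums of the runx1+ libraries were at a ratio of 0.954 (0.832 to 1.09). Most of the beta difference came from *itgb2*, which held 66.9% of all integrin reads in the gata2a+ runx1+ library (64.8 to 69.0), 43.4% in the gata2a- runx1+ library (40.8 to 46.1), and 75.7% in the gata2a+ runx1- library (74.3 to 77.1). Without *itgb2*, the beta genes summed to 29.5, 40.0, and 34.3 RPM, and the ratio was 0.739 (0.623 to 0.876) in the gata2a+ runx1+ over the gata2a- runx1+ library, 0.860 (0.721 to 1.03) in the gata2a+ runx1+ over the gata2a+ runx1- library, and 1.16 (0.989 to 1.37) in the gata2a- runx1+ over the gata2a+ runx1- library. The order of the libraries in beta reads thus rested on 1 gene.

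The near equality of the alpha sums likewise rested on single genes. Without *ITGA8*, the alpha genes summed to 35.7 RPM in the gata2a+ runx1+ library and 52.9 RPM in the gata2a- runx1+ library, a ratio of 0.675 (0.580 to 0.785). Without *ITGA10*, whose reads are uncertain, the sums were 33.4 RPM in the gata2a+ runx1+ library and 21.8 RPM in the gata2a- runx1+ library, a ratio of 1.53 (1.26 to 1.86), so that the direction turned with the gene left out. Counted gene by gene, the gata2a+ runx1+ library had 3 alpha genes higher and 3 lower than the gata2a- runx1+ library, of 16 with a read, and 3 beta genes higher and 1 lower, of 7. Against the gata2a+ runx1- library, it had 3 alpha genes higher and 8 lower of 16, and 3 beta genes higher and 4 lower of 8. In the gata2a- runx1+ library, 1 alpha gene was higher and 5 were lower than in the gata2a+ runx1- library, of 14, and 2 beta genes were higher and 5 lower, of 8. The shares of all genes called in these pairs were 16.8% higher and 9.59% lower, 15.4% and 17.9%, and 15.3% and 22.0%, and with so few genes of each kind the counts are given as descriptions. The higher alpha genes of the gata2a+ runx1+ library were *ITGA8*, *ITGAV*, and *ITGA1* over the gata2a- runx1+ library and *ITGA8*, *itgae.2*, and *itga3a* over the gata2a+ runx1- library, and *ITGA8* was the only alpha gene higher than in both.

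Integrins work with ligands outside the cell and with a chain of activators, adaptors, and kinases inside it, and 86 genes of these kinds were looked up. Of those with a read in either library, the gata2a+ runx1+ library had 20 higher and 10 lower of 71 compared with the gata2a- runx1+ library, and 12 higher and 20 lower of 73 compared with the gata2a+ runx1- library. In the gata2a- runx1+ library, 11 were higher and 24 lower of 72 than in the gata2a+ runx1- library. As shares, these were 28.2% and 14.1%, 16.4% and 27.4%, and 15.3% and 33.3%, where the background of all genes was 16.8% and 9.59%, 15.4% and 17.9%, and 15.3% and 22.0%.

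Of the 17 ligand genes, 5 were higher and 3 lower of 11 in the gata2a+ runx1+ over the gata2a- runx1+ library, 4 and 5 of 13 in the gata2a+ runx1+ over the gata2a+ runx1- library, and 3 and 6 of 12 in the gata2a- runx1+ over the gata2a+ runx1- library. The shares of all genes in these pairs were 16.8% higher and 9.59% lower, 15.4% and 17.9%, and 15.3% and 22.0%. The 2 copies of *FN1*, the gene of fibronectin, ran in opposite directions. The copy ENSDARG00000006526 had 271 reads in the gata2a+ runx1+ library, 2953 reads in the gata2a- runx1+ library, and 55 reads in the gata2a+ runx1- library, and the copy ENSDARG00000019815 had 30, 2, and 230 reads. The first copy was called lower, higher, and higher in the 3 pairs of libraries and the second higher, lower, and lower. Laminin chains were also split, with *LAMB1* (ENSDARG00000101209) at 655, 53, and 114 reads, which was 12.5-fold and 5.73-fold higher in the gata2a+ runx1+ library than in the other two, and its second copy (ENSDARG00000045524) at 6, 52, and 32 reads. *LAMA5* (ENSDARG00000058543) had 118 and 58 reads in the runx1+ libraries and 0 reads in the gata2a+ runx1- library, and *lama4* (ENSDARG00000020785) had 16, 29, and 207 reads. *LAMB2* had 4, 18, and 4 reads and *lamc1* had 2, 10, and 25 reads. *vcam1a* (ENSDARG00000078201), a ligand of alpha4 and alpha9 integrins, had 8 reads in the gata2a+ runx1+ library and 0 reads in both others, the opposite of *ITGA4*, which was lowest there. *jam2a* (ENSDARG00000058996), a junction protein whose mammalian counterpart binds alpha4 with beta1, had 1278, 301, and 641 reads and was 4.29-fold higher in the gata2a+ runx1+ than in the gata2a- runx1+ library. *cdh1*, the E-cadherin that alphaE binds in mammals, had 2, 6, and 33 reads, and was lower in both runx1+ libraries than in the gata2a+ runx1- library.

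Activators act on the tail of the beta chain or switch on the small GTPase Rap1. *TLN1*, the gene of talin, had 5177, 8217, and 4806 reads and was called in no pair. Of the kindlin-3 genes, whose human form is lost in a leukocyte adhesion deficiency, *FERMT3* ENSDARG00000030938 had 1161, 2457, and 747 reads and *FERMT3* ENSDARG00000079267 had 993, 669, and 1004 reads. The first was lower in the gata2a+ runx1+ than in the gata2a- runx1+ library (ratio 0.477) and higher in the gata2a- runx1+ than in the gata2a+ runx1- library (ratio 3.24), and the second was called in no pair. The copies of *RASGRP2*, which activates Rap1 in platelets, had 183, 65, and 180 reads (ENSDARG00000062328) and 13, 36, and 0 reads (ENSDARG00000099092). *rap1ab* had 99, 29, and 36 reads and was 3.45-fold and 2.74-fold higher in the gata2a+ runx1+ library than in the other two. The other Rap1 genes were read more, *rap1aa* with 523, 715, and 430 reads and *rap1b* with 987, 1151, and 892 reads. Both were highest in the gata2a- runx1+ library and were called in no pair. *SKAP2*, an adaptor for beta2 activation in myeloid cells, had 595, 473, and 1803 reads, and *skap1*, its relative in T cells, had 7, 37, and 45 reads. *TLN2* had 6, 0, and 6 reads and was called in both pairs with the gata2a- runx1+ library, and 1 copy of *CYTH1* (ENSDARG00000021488), with 944, 1448, and 650 reads, was called in a single pair. Of the activators, 3 were higher and 3 lower of 16 between the gata2a+ runx1+ and the gata2a- runx1+ library, 2 and 2 of 16 between the gata2a+ runx1+ and the gata2a+ runx1- library, and 3 and 3 of 15 between the gata2a- runx1+ and the gata2a+ runx1- library. As shares these were 18.8% and 18.8%, 12.5% and 12.5%, and 20% and 20%. The shares of all genes were 16.8% and 9.59%, 15.4% and 17.9%, and 15.3% and 22.0%.

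The adaptors that tie integrins to actin ran in both directions, also between copies of a gene. Vinculin, *VCL* ENSDARG00000044968, had 2 reads in the gata2a+ runx1+ library, 238 reads in the gata2a- runx1+ library, and 3 reads in the gata2a+ runx1- library, and *VCL* ENSDARG00000098695 had 10, 29, and 0 reads. *PARVB*, which links integrin-linked kinase to actin, had 336, 758, and 109 reads, whereas *parvg*, its counterpart in blood cells, had 1188, 544, and 2287 reads, in the order of *itgb2*. *PXN* (ENSDARG00000088590), the gene of paxillin, had 281, 161, and 698 reads, *BCAR1* had 15, 19, and 38 reads, and *PARVA* (ENSDARG00000035629) had 2, 4, and 12 reads. *ACTN1*, an actin crosslinker, had 2182, 875, and 1181 reads and was 2.52-fold higher in the gata2a+ runx1+ than in the gata2a- runx1+ library, and *actn4* had 139, 70, and 136 reads, at a ratio of 2.01. The ratio of *actn4* just passed the 2-fold limit and falls below it under each of the 3 rescalings, which lower every log2 ratio of this pair. *ILK*, with 1083, 2179, and 1418 reads, was called in no pair. In all, 4 adaptors were higher and 3 lower of 18 in the gata2a+ runx1+ over the gata2a- runx1+ library, 3 and 4 of 17 in the gata2a+ runx1+ over the gata2a+ runx1- library, and 4 and 4 of 18 in the gata2a- runx1+ over the gata2a+ runx1- library. As shares these were 22.2% and 16.7%, 17.6% and 23.5%, and 22.2% and 22.2%. Those of all genes were 16.8% and 9.59%, 15.4% and 17.9%, and 15.3% and 22.0%.

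Of the kinases downstream of integrins, 5 of 11 were lower and 2 were higher in the gata2a+ runx1+ than in the gata2a+ runx1- library, and 6 of 11 were lower and 1 was higher in the gata2a- runx1+ than in the gata2a+ runx1- library. Between the runx1+ libraries, 4 of 12 were higher and 1 was lower in the gata2a+ runx1+ library. Of all genes, 15.4% were higher and 17.9% lower in the first of these pairs, 15.3% and 22.0% in the second, and 16.8% and 9.59% in the third. *FGR*, a Src family kinase of myeloid cells, was highest in the gata2a+ runx1- library, with 186, 292, and 744 reads, while *LYN* of the same family had 272, 65, and 196 reads. *SYK*, which signals from beta2 integrins, had 962, 876, and 2002 reads. *YES1* had 19, 20, and 91 reads and *fynb* had 6, 17, and 35 reads. *SRC* was read only in the gata2a- runx1+ library, with 56 reads. Against the floor of 3 reads, this was 18.5-fold more than in the gata2a+ runx1+ library and 18.4-fold more than in the gata2a+ runx1- library. Both intervals began at 14.5-fold more. Among the genes of focal adhesion kinase and its relative, *PTK2* (ENSDARG00000100456) had 11, 0, and 0 reads, *ptk2ab* had 7, 2, and 1 reads, and *PTK2B* (ENSDARG00000039577) had 32, 2, and 1 reads, each highest in the gata2a+ runx1+ library. *ptk2ab* was called in no pair, whereas *PTK2* and this copy of *PTK2B* were higher there than in either other library. For *PTK2*, this was 3.70-fold and 3.65-fold against the floor, with intervals that began at 2.54-fold and 2.50-fold. For this copy of *PTK2B*, the ratios were 16.2 (4.12 to 139.2) and 31.9 (5.33 to 1298). The other copy of *PTK2B* (ENSDARG00000022841) was read more, with 115, 61, and 116 reads, and was called in no pair.

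Of the tetraspanins and other lateral partners, 3 of 9 were higher and 0 were lower in the gata2a+ runx1+ than in the gata2a- runx1+ library, and 1 of 11 was higher and 4 were lower than in the gata2a+ runx1- library. In the gata2a- runx1+ library, 0 were higher and 4 of 11 were lower than in the gata2a+ runx1- library. In these pairs 16.8% of all genes were higher and 9.59% lower, 15.4% and 17.9%, and 15.3% and 22.0%. *CD81* (ENSDARG00000036080), part of the B cell coreceptor in mammals, had 3379, 794, and 9026 reads, *CD82* (ENSDARG00000026070) had 42, 14, and 123 reads, and its other copy (ENSDARG00000019098) had 49, 41, and 24 reads. *cd9b* had 13, 0, and 4 reads, *CD151* (ENSDARG00000068629) had 0, 2, and 12 reads, and *slc3a2a*, a heavy chain that binds beta subunits, had 3, 2, and 57 reads. The other copy of this heavy chain, *SLC3A2* (ENSDARG00000037012), had 1653, 1770, and 2823 reads, and *cd9a* had 639, 514, and 472 reads. Both were read more than *slc3a2a* and *cd9b*, and both were called in no pair. *CD81* took the order of *itgb2*. The marker sums of B cells, macrophages, other leukocytes, endothelial cells, and stromal cells were also highest in the gata2a+ runx1- library, and their part in these values was not tested. Inhibitors and binding proteins gave 1 higher call of 5 in the gata2a+ runx1+ over the gata2a- runx1+ library, *itgb3bp* with 15, 3, and 8 reads, and 1 lower call of 5 in the gata2a- runx1+ over the gata2a+ runx1- library, *dok2* with 73, 51, and 133 reads.

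**Figure D4:**
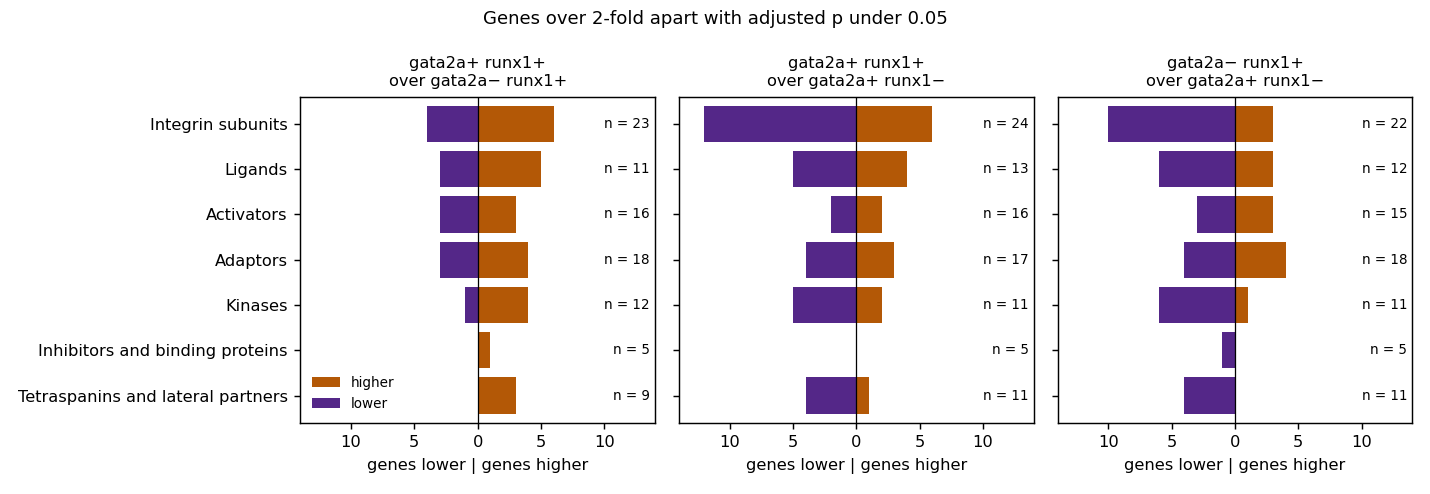
Number of genes called higher (brown, to the right) and lower (purple, to the left) in gata2a+ runx1+ over gata2a- runx1+, gata2a+ runx1+ over gata2a+ runx1-, and gata2a- runx1+ over gata2a+ runx1-, for the integrin subunits and for 6 groups of genes that work with integrins, where n is the number of genes with a read in either library. The longest bar is that of the 12 integrin subunits lower in the gata2a+ runx1+ than in the gata2a+ runx1- library, where 17.9% of all genes were lower. Bars are counts, and the groups differ in size.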

How the data were processed

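Cells were sorted directly into lysis buffer, and cDNA primed with oligo-dT was amplified by PCR (Quartz-Seq). HISAT2 2.1.0 was the aligner and GRCz11 the genome, and the authors deposited RPM, the reads of each gene scaled by the library's counted total, from Subread 1.6.4 with 2 decimals. The annotation, the use of strand, and the treatment of reads with several matches are not given in the sources used here. Every deposited RPM value equalled a whole number of reads within rounding at its 2 decimals, which gave back the reads, and these were compared between pairs of libraries in Python 3.11.15 with scipy 1.17.1. Fisher's exact test was two-sided, with Benjamini-Hochberg adjustment over all genes with a read in either library. Levels have 95% Wilson intervals, and ratios have 95% exact binomial intervals conditional on the summed reads. The steps were tested on simulated data with counting error only and with 4-fold changes in well-read genes. This does not cover PCR copies or calls in genes with few reads. The paper's 2-fold limit was kept.

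The members, gene lists, and tests were chosen with earlier results of these data known, and sums over subunit classes were added after values were seen. Named are all members over 3 reads in a library, the other members by name only, and listed genes called in at least 1 pair, of which some are not reported here by name, with any other gene chosen after its values were seen. Symbols came from a table of gene names, which named 28988 of 32057 genes. RefSeq genes of assembly GRCz12tu were used for names and overlaps only. The alternatives were the fold limit alone, limits of 1.5-fold and 4-fold, a minimum of 1 RPM, rescaling in R 4.3.3 by edgeR 4.0.16 (TMM factors) or by DESeq2 1.42.0 (median-ratio factors), totals without the 20 genes with most reads, and for medians other pseudocounts and minimum RPM values. Gene lengths were not used, so where reads or RPM of different genes stand side by side, they are read counts and not levels corrected for length. Protein sequences were not analysed here.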

Additional observations from a re-analysis of the deposited data

How the results depend on the processing

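No called integrin fold changed direction when the libraries were rescaled, and of the 65 folds only that of *itga6l*, with 4 reads in the gata2a+ runx1+ library and 4 in the gata2a+ runx1- library, changed sign, from -0.0052 to 0.0269 on the log2 scale without the 20 genes with most reads. Changing the fold limit leaves the folds as they are, and with the minimum of 1 RPM 50 of the 65 were run. With a limit of 4-fold, 3 integrin genes were higher and 2 lower in the gata2a+ runx1+ over the gata2a- runx1+ library, 3 and 7 in the gata2a+ runx1+ over the gata2a+ runx1- library, and 1 and 6 in the gata2a- runx1+ over the gata2a+ runx1- library, since fewer genes pass a higher limit. Of all genes, 1337 were higher and 729 lower of 18378 tested, 1307 and 1738 of 19104, and 1187 and 2266 of 18637 at this limit. With no minimum RPM, the median difference in log2(RPM + 1) was 0.0 in both comparisons with the gata2a+ runx1- library, since this setting adds the unread genes. Under TMM factors, 4 integrin genes were higher and 5 lower in the gata2a+ runx1+ over the gata2a- runx1+ library, with *ITGB4* and *ITGA1* lost and *itgae.1* called lower, and the *ITGB4* and *itgae.1* changes also came with DESeq2 factors and without the 20 genes with most reads. Of all genes, 2658 were higher and 2049 lower in this pair under TMM factors, and 3093 and 1763 without them. The other integrin counts stayed within 1.5 times those of the report. DESeq2 factors moved every log2 ratio of the gata2a+ runx1+ over the gata2a+ runx1- library by -0.10.

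No paired analysis was possible because each population has 1 library, and for the same reason no fit without a library was made. The planned comparison of levels per kilobase of coding length was not run, since no table of protein sequences was used here. Genes with under about 10 reads give ratios with wide intervals. Calls of single genes outside the integrin gene set were not rerun under the alternatives.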

Other observations

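The subunits left out of the gene set had their own pattern. *itga2b* (ENSDARG00000018687) had 307 reads in the gata2a+ runx1+ library, 3016 reads in the gata2a- runx1+ library, and 3 reads in the gata2a+ runx1- library. Its beta partner is listed as 2 genes named *ITGB3*, of which ENSDARG00000045070 had 68, 34, and 39 reads and ENSDARG00000056767 had 0, 20, and 2 reads. The first *ITGB3* gene was higher in the gata2a+ runx1+ than in the gata2a- runx1+ library (ratio 2.02, 1.32 to 3.15). The second was 6.60-fold lower against the floor of 3 reads, with an interval that began at 4.89-fold lower. The adjusted p was 0.00210 for the first and 8.5e-06 for the second (Fisher's exact test). The summed *ITGB3* reads were 8.37 RPM in the gata2a+ runx1+ library (6.60 to 10.6), 6.58 RPM in the gata2a- runx1+ library (5.04 to 8.59), and 5.07 RPM in the gata2a+ runx1- library (3.73 to 6.87).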
